A study of Homo sapiens with 12 samples.

Results

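The genes described here are 10 transcription factors that set B cell and plasma cell identity: IRF4, PRDM1, XBP1, IKZF1, IKZF3, POU2AF1, POU2F2, MEF2C, PAX5 and BCL6. They were chosen by name, with earlier results of these data known. Their rows are those of the deposited tables that carry one of these symbols, and all 10 were found among 25680 symbols. RNA sequencing was done on the human multiple myeloma lines U266 and MM.1S, each kept for 6 h with the solvent DMSO or with 6 µM IT848, a compound labelled as an NF-kB inhibitor. The 4 groups (U266 with DMSO, U266 with IT848, MM.1S with DMSO and MM.1S with IT848) held 3 libraries each. U266 is a line from an IgE myeloma, and MM.1S is a line from an IgA myeloma with high expression of the transcription factor MAF. The description of the series names exome sequencing, whereas the tables hold RNA counts. Nothing in the labels tells if libraries of 1 group are separate cultures, and p-values then measure the spread between these libraries, which may be technical.

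When a B cell becomes an antibody-secreting plasma cell, PAX5 and BCL6, which hold the B cell and germinal centre states, are switched off, and IRF4, PRDM1 (the repressor Blimp-1) and XBP1 (the activator of the secretory pathway) are switched on. IRF4 and the Ikaros factors IKZF1 and IKZF3 are factors that myeloma cells depend on, and the Ikaros proteins are degraded through cereblon in the presence of lenalidomide. POU2F2 (Oct-2) and its coactivator POU2AF1 (OCA-B) act at octamer motifs in B lineage genes, and MEF2C is a MADS-box factor that responds to calcium signals. NF-kB is known to activate IRF4 transcription in activated lymphocytes.

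Depth was 50627690 to 72039748 transcript counts per library, with 18259 to 20966 genes seen. The labelled cell type was checked against markers. Of 18 plasma cell genes, 18 were above 1 CPM (count per 1000000 counts of a library) in U266 and 17 in MM.1S. Of 20 B cell genes, 8 were above 1 CPM in U266 and 10 in MM.1S under DMSO. CIITA (39.1 ± 3.91 CPM), ID3 (38.7 ± 1.16) and CD79B (35.2 ± 3.6) had the highest CPM in U266 (SD, n = 3). In MM.1S these were BLNK (242 ± 7.25), FCRLA (66.9 ± 1.08) and CIITA (51.1 ± 4.97). CPM sums the transcripts of a gene and repeats shared reads, so this order and the 1 CPM cut do not compare genes strictly. MS4A1 was at 0 in the DMSO libraries of U266 and CD22 in MM.1S. Markers of T and NK cells (8 genes) summed to 2.87 to 4.78 CPM over all libraries, myeloid markers (7 genes) to 1.07 to 4.78, epithelial markers (4 genes) to 0.607 to 1.89, and erythroid markers (4 genes) to 0.743 to 1.55 in U266. In MM.1S the erythroid markers summed to 2.19 to 2.28 with DMSO and 4.22 to 5.43 with IT848, with HBB, the highest, at 1.98 ± 0.0909 and 4.59 ± 0.669. Stromal markers (5 genes, COL1A1 the highest) summed to 22.4 to 26.9 CPM with DMSO and 28.8 to 35 with IT848 in U266, and to 12.3 to 15.9 and 17.7 to 22.9 in MM.1S; the part of these markers in any result was not tested. A pair of libraries held more reads of genes typical of the other line. The genes were above 50 CPM in 1 line and chosen as near 0 in U266 DMSO or in MM.1S IT848. Mixing in the libraries used for that choice could thus not be seen. A sum over 3 genes high in MM.1S reached 0.781% of the MM.1S level in U266 IT848 replicate 1 and 0.117% in replicate 3. One over 6 genes high in U266 reached 0.397% of the U266 level in MM.1S DMSO replicate 2. These sums rest on few genes, and their source was not tested. Below, U266 IT848 replicate 1 and MM.1S DMSO replicate 2 are called the libraries with reads of the other line. The responses of the 8 factors that fell are given with and without these libraries.

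Promoters of IRF4 and POU2F2, which had the largest falls in U266, are printed to show what lies before annotated starts of these genes. The MEF2C promoter that holds an NF-kB motif is printed too. These promoters are RefSeq sequences of build GRCh38.p14, 5′ to 3′ on the gene's strand, and each ends 1 base before an annotated start. Capitals mark a match to the NF-kB consensus. The IRF4 window is chr6:391502-391751 on the + strand, and the POU2F2 window is chr19:42132447-42132696 on the - strand. The MEF2C window, 1 of 7 for this gene, is chr5:88884537-88884786 on the - strand. Only the IRF4 window lies in front of its whole gene (chr6:391752-411443). The POU2F2 and MEF2C windows lie inside their genes (chr19:42086110-42197936 and chr5:88717117-88904105), before internal starts.
IRF4: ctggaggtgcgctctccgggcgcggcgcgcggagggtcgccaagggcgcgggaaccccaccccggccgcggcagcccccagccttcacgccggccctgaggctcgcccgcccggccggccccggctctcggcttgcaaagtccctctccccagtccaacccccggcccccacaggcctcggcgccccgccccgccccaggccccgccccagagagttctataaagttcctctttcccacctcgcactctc
POU2F2: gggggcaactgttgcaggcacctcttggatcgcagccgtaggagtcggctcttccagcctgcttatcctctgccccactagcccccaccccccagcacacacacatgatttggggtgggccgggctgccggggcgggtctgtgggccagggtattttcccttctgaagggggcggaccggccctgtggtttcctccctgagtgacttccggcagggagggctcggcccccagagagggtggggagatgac
MEF2C: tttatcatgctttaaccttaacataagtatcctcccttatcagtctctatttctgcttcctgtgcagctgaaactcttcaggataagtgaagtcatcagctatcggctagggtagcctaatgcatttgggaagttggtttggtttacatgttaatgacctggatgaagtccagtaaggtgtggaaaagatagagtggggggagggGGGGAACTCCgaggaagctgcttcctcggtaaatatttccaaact
RefSeq promoters matched 8 of the 10 genes, with 19 windows of 250 bases, and the table used held no entry for IKZF3 or POU2AF1. The NF-kB consensus, searched on both strands, was found in 1 of 19 windows, in MEF2C 45 bases before an internal start. It was found in 5.21% of all 35116 promoters. The octamer ATGCAAAT, the motif read by POU2F2, was found in 1 of 19 windows, again in a MEF2C promoter, and in 1.63% of all promoters. The motifs do not contain each other, and a match is a description of letters, not of binding.

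After 6 h of IT848, transcripts of 8 of the 10 factors were lower in both lines. In U266, 8 of 10 were called lower and 0 higher by edgeR's quasi-likelihood test at an adjusted p below 0.05, where 9.01% of the 16782 genes tested were called, 4.98% lower and 4.03% higher. In MM.1S, 8 of 10 were called lower and 0 higher, against 38.3% of genes called, 19.6% lower and 18.7% higher. The 8 were the same genes in both lines: IRF4, PRDM1, XBP1, IKZF1, IKZF3, POU2AF1, POU2F2 and MEF2C. Of all genes tested, 2.97% were called lower in both lines. Their percent changes in U266 ran from -45.6 to -16.5, and those in MM.1S from -42.3 to -14.1. The median log2 fold change of the 10 factors was -0.33 in U266, against 0.01 for all genes, and -0.56 in MM.1S, against -0.01. Levels of all 8 were lower with IT848 without overlap between libraries in both lines, as were 14.6% of genes in U266 and 24.9% in MM.1S. With BCL6, which was higher, 9 of the 10 showed no overlap in U266 (28.9% of genes in either direction), and 8 of 10 in MM.1S (47.2%). The pair of libraries with reads of the other line (U266 IT848 replicate 1 and MM.1S DMSO replicate 2) was also left out. The log2 fold changes in U266 were then -0.56 for IRF4, -0.26 for PRDM1, -0.38 for XBP1 and -0.29 for IKZF1. They were -0.36 for IKZF3, -0.29 for POU2AF1, -0.89 for POU2F2 and -0.39 for MEF2C. All were called but that of POU2AF1. In MM.1S the same genes were at -0.56, -0.37, -0.55, -0.60, -0.51, -0.49, -0.79 and -0.22, all called. These are bulk samples, so fewer cells expressing a gene and less RNA per cell cannot be told apart.

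**Figure D1:**
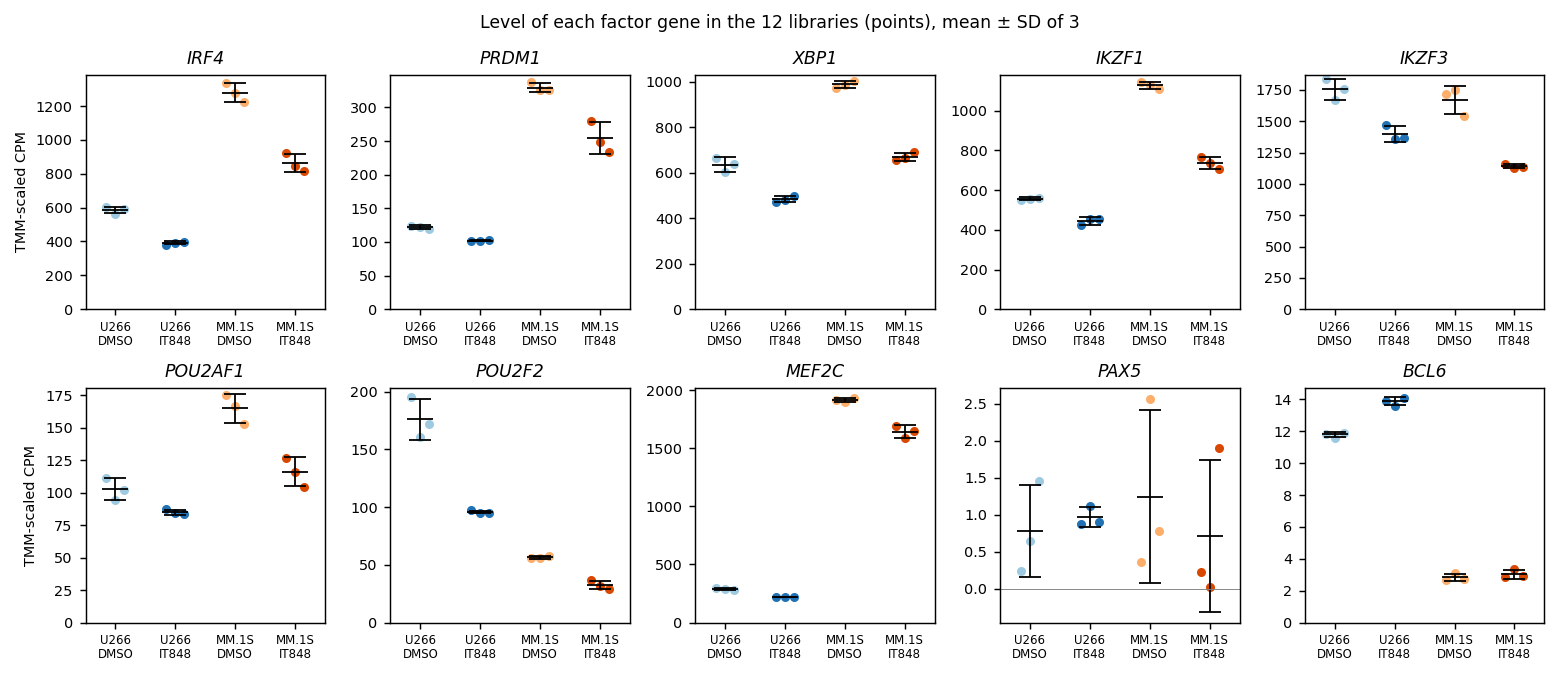
Levels of the 10 factors in each library, in TMM-scaled CPM on a linear axis that differs between panels and starts at 0, except for PAX5, where an SD bar runs below 0; points are libraries, and bars are the mean and SD of 3 libraries. In 8 panels the IT848 points lie below the DMSO points of the same line, from -14.1% for MEF2C in MM.1S to -45.6% for POU2F2 in U266; BCL6 and PAX5 do not show this.

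IRF4, the factor on which both the plasma cell programme and myeloma cell survival depend, stood at 601, 564 and 591 CPM in the DMSO libraries of U266 and at 382, 394 and 399 CPM with IT848. The IT848 libraries were all below the DMSO libraries, and each group was tight. The log2 fold change was -0.58 ± 0.05 (SE), a change of -33.1% (edgeR adjusted p = 2.2e-06). In MM.1S the level was 1338, 1274 and 1224 CPM with DMSO and 920, 848 and 818 CPM with IT848, again without overlap. There the log2 fold change was -0.57 ± 0.05, a change of -32.6% (edgeR adjusted p = 5e-07). The responses of the lines differed by 0.01 ± 0.07 (95% interval -0.12 to 0.14, edgeR adjusted p = 0.947), so a difference beyond that interval was not seen. IRF4 was called lower in each of the 21 alternative analyses in both lines.

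PRDM1, whose product represses PAX5, MYC and other B cell genes, moved less. Its level in U266 was 124, 122 and 119 CPM with DMSO and 101, 101 and 103 CPM with IT848. The groups lay apart by more than their spread, with a log2 fold change of -0.26 ± 0.05 (edgeR adjusted p = 0.00626). In MM.1S, PRDM1 was at 337, 326 and 326 CPM with DMSO and at 280, 248 and 234 CPM with IT848. Replicate 1 was the highest of the treated libraries, and all 3 were below the controls (log2 fold change -0.38 ± 0.05, edgeR adjusted p = 7.8e-05). The difference between the lines was -0.12 ± 0.08 (edgeR adjusted p = 0.323), but -0.17 ± 0.05 (adjusted p = 0.0328) without IT848 replicate 1 of MM.1S, with adjusted p between 0.0328 and 0.644 over the alternatives.

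XBP1, the factor made active by IRE1-dependent splicing of its mRNA, was at 667, 603 and 639 CPM in U266 with DMSO and at 471, 481 and 500 CPM with IT848. In MM.1S the libraries gave 973, 986 and 1005 CPM with DMSO and 654, 666 and 690 CPM with IT848. In both lines every treated library was below every control. The log2 fold change was -0.39 ± 0.04 in U266 (edgeR adjusted p = 2.4e-05) and -0.56 ± 0.04 in MM.1S (adjusted p = 1.7e-07). The difference between lines was -0.17 ± 0.06 (edgeR adjusted p = 0.0683), past the threshold in 2 of 20 alternatives, with adjusted p from 0.00588 to 0.203. Both XBP1 transcripts in the tables carried the same counts, so the spliced and unspliced forms were not told apart.

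The Ikaros factors fell in both lines, and IKZF1 fell further in MM.1S. IKZF1 (Ikaros) was at 551, 556 and 563 CPM in U266 with DMSO and at 424, 457 and 453 CPM with IT848. In MM.1S it was at 1146, 1131 and 1109 CPM with DMSO and at 769, 737 and 705 CPM with IT848. The treated libraries were all lower, with changes of -20.1% in U266 (log2 fold change -0.32 ± 0.04, edgeR adjusted p = 0.00011) and -34.7% in MM.1S (-0.61 ± 0.04, adjusted p = 5.1e-08). The difference of the responses was -0.29 ± 0.06 (edgeR adjusted p = 0.00321) and was called in all 20 alternatives. Of all genes tested, 17.4% were called in this contrast. Genes at large also moved more in MM.1S, with a median absolute log2 fold change of 0.23, against 0.11 in U266. The share of tested genes with a lower log2 fold change than IKZF1 was 7.29% in U266 and 8.46% in MM.1S.

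IKZF3 (Aiolos), the close relative of IKZF1, was at 1835, 1670 and 1757 CPM in U266 with DMSO and at 1472, 1360 and 1367 CPM with IT848. MM.1S gave 1721, 1750 and 1545 CPM with DMSO and 1157, 1124 and 1138 CPM with IT848. The DMSO libraries of MM.1S were the most spread of these groups, yet the lowest of them was above every treated library. Log2 fold changes were -0.33 ± 0.05 in U266 (edgeR adjusted p = 0.00069) and -0.55 ± 0.05 in MM.1S (adjusted p = 1.2e-06). The difference of -0.23 ± 0.07 (edgeR adjusted p = 0.0404) was called in 9 of 20 alternatives, with adjusted p from 0.00828 to 0.441. It fell to -0.15 ± 0.07 (adjusted p = 0.233) without the 2 libraries with reads of the other line. It was also lost without DMSO replicate 2 (adjusted p = 0.107) or 3 (0.0817) of U266, IT848 replicate 1 (0.11) or 3 (0.059) of U266, DMSO replicate 1 (0.102) or 2 (0.109) of MM.1S, or IT848 replicate 2 (0.0922) or 3 (0.0521) of MM.1S.

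POU2F2 (Oct-2) had the largest of the 8 falls in each line. In U266 it stood at 195, 161 and 172 CPM with DMSO and at 97.2, 95.1 and 95 CPM with IT848. DMSO replicate 1 was the highest, and the lowest control was well above the treated libraries, which were nearly equal. The change was -45.6% (log2 fold change -0.88 ± 0.07, edgeR adjusted p = 3.1e-06). In MM.1S, where the level was lower, libraries gave 55.6, 55.9 and 57.7 CPM with DMSO and 36.5, 31.8 and 29.4 CPM with IT848. The groups did not overlap, and the change was -42.3% (-0.79 ± 0.08, edgeR adjusted p = 2.6e-06). The responses of the lines differed by 0.08 ± 0.11 (95% interval -0.12 to 0.29, edgeR adjusted p = 0.627). The 4 POU2F2 transcripts, of 1703 to 6944 bases, gave unscaled log2 fold changes between -0.881 and -0.838 in U266 and between -0.862 and -0.804 in MM.1S, with reads shared between short and long forms.

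POU2AF1 (OCA-B), the coactivator that POU2F2 recruits, had libraries at 111, 94.6 and 102 CPM in U266 with DMSO and at 87.2, 84.2 and 83.6 CPM with IT848. DMSO replicate 2 lay nearest to the treated libraries, and the groups did not overlap. The log2 fold change of -0.27 ± 0.07 (edgeR adjusted p = 0.0309) was the least firm of the U266 calls. It was lost in 5 of 21 alternatives: without the 2 libraries with reads of the other line (-0.29 ± 0.08, adjusted p = 0.0686), DMSO replicate 1 (-0.21, 0.125) or 3 (-0.27, 0.0754), or IT848 replicate 2 (-0.26, 0.0836) or 3 (-0.26, 0.0871), over a range of 0.00099 to 0.125. In MM.1S the values were 175, 167 and 153 CPM with DMSO and 127, 116 and 104 CPM with IT848. Treated libraries were below all controls there, with a log2 fold change of -0.51 ± 0.07 (edgeR adjusted p = 8.4e-05) that was called in all 21 alternatives. The difference between lines was -0.24 ± 0.10 (edgeR adjusted p = 0.126), called in 2 of 20 alternatives, among them without IT848 replicate 1 of MM.1S (-0.29 ± 0.09, adjusted p = 0.0346; range 0.00918 to 0.298).

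MEF2C showed the opposite order of the lines. Its level was 293, 291 and 283 CPM in U266 with DMSO and 221, 217 and 222 CPM with IT848, a change of -23.8% (log2 fold change -0.39 ± 0.03, edgeR adjusted p = 3.4e-06). In MM.1S it was 1914, 1893 and 1933 CPM with DMSO and 1693, 1589 and 1646 CPM with IT848, a change of -14.1% (-0.22 ± 0.03, edgeR adjusted p = 0.00015). Treated libraries were below all controls in both lines, and the fall was smaller where the gene was higher. The difference of the responses was 0.17 ± 0.05 (edgeR adjusted p = 0.0224). It did not pass without DMSO replicate 2 of MM.1S (0.16 ± 0.05, adjusted p = 0.0648) or without both libraries with reads of the other line (0.18 ± 0.06, adjusted p = 0.0922), and passed in 18 of 20 alternatives (0.00067 to 0.0922). MEF2C-AS1 overlaps MEF2C on the other strand and held 1718 counts over all libraries, and how the counting used strand is not given in the sources.

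BCL6, the germinal centre repressor, was low and did not fall. In U266 it was at 11.8, 11.6 and 11.9 CPM with DMSO and at 13.9, 13.6 and 14.1 CPM with IT848. Every treated library was above every control, but the log2 fold change of 0.24 ± 0.07 missed the threshold (edgeR adjusted p = 0.0508). DESeq2 gave an adjusted p of 0.0358, and BCL6 was called in 8 of 21 alternatives, with a range of 0.0141 to 0.153. Leaving out IT848 replicate 1, 2 or 3 of MM.1S, which take part only in the shared estimate of spread, gave an adjusted p of 0.0349, 0.0453 or 0.0379. In MM.1S the libraries gave 2.68, 3.09 and 2.76 CPM with DMSO and 2.83, 3.34 and 2.9 CPM with IT848. Those groups overlapped, with a log2 fold change of 0.10 ± 0.09 (95% interval -0.08 to 0.28, edgeR adjusted p = 0.435).

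PAX5, the B cell commitment factor that Blimp-1 silences in plasma cells, was close to the limit of detection. Its most counted transcript had 1, 3 and 7 reads in the DMSO libraries of U266 and 4, 5 and 5 with IT848. In MM.1S there were 2, 10 and 4 reads with DMSO and 1, 0 and 8 with IT848. The groups overlapped in both lines, and the highest MM.1S control was replicate 2. The tables list 13 PAX5 transcripts that share these reads, so the summed level of 0.0171 to 2.57 CPM rests on few reads. Log2 fold changes were 0.29 ± 1.01 in U266 (edgeR adjusted p = 0.924) and -0.78 ± 1.02 in MM.1S (adjusted p = 0.591), so a change was not detectable at this depth. The sign turned without DMSO replicate 1 in U266 (-0.13, adjusted p = 0.977) and without DMSO replicate 2 in MM.1S (0.32).

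**Figure D2:**
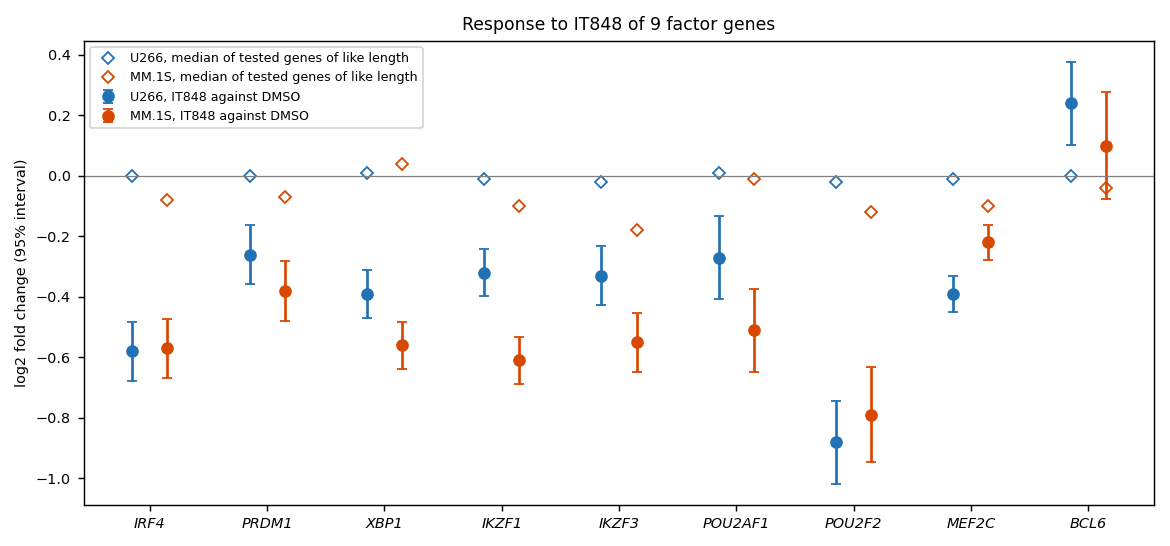
Log2 fold change with IT848 against DMSO in U266 and in MM.1S (filled points, bars give the 95% interval) for 9 factors, without PAX5, whose interval is far wider; open diamonds are the median of tested genes of like length, and the line is at 0. The 8 factors that fell lie below 0 in both lines, IKZF1 lower in MM.1S (-0.61) than in U266 (-0.32) and MEF2C lower in U266 (-0.39) than in MM.1S (-0.22), while BCL6 lies above 0.

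In the test of the difference itself, 3 of the 10 factors passed: IKZF1 and IKZF3 fell further in MM.1S and MEF2C fell further in U266. The call held in 20 of 20 alternatives for IKZF1, 18 for MEF2C and only 9 for IKZF3. Of all genes, 8.94% were called lower and 8.49% higher in this contrast. The median difference of the 10 factors was -0.16, against -0.02 for all genes. The other 7 did not pass, which does not show that the lines respond alike: the interval for BCL6, for example, ran from -0.37 to 0.09.

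Fold changes of long and short transcripts differed between libraries, so each fall was set beside genes of like length (within 1.2 times). Over 12584 genes, the Spearman correlation of a library's deviation with transcript length ran in MM.1S from 0.145 to 0.33 with DMSO and from -0.38 to 0.0267 with IT848. In U266 it ran from -0.00454 to 0.176 and from -0.179 to 0.0682. In MM.1S the median log2 fold change of genes of like length was -0.18 for IKZF3, -0.12 for POU2F2, -0.10 for IKZF1 and MEF2C, -0.08 for IRF4, -0.07 for PRDM1, -0.01 for POU2AF1 and 0.04 for XBP1, all nearer to 0 than the values of these genes. In U266 it lay between -0.02 and 0.01 for all 8. With the trend taken out of each library, an analysis added after the data had been seen, all 8 were still called lower in both lines. The MM.1S values were then -0.47 for IRF4, -0.29 for PRDM1, -0.62 for XBP1, -0.50 for IKZF1, -0.37 for IKZF3, -0.50 for POU2AF1, -0.67 for POU2F2 and -0.10 for MEF2C (edgeR adjusted p = 0.0421 for MEF2C). IKZF3 moved the most in log2 units, and MEF2C the most relative to its own size. The difference between the lines for IKZF3 was -0.10 (adjusted p = 0.441) with the trend taken out. In the IT848 libraries of MM.1S, replicate 1 was the highest of the 3 for 7 of the 8 factors and replicate 3 the lowest for 5. In the DMSO libraries of U266, replicate 1 was the highest for 7 of the 8, and its correlation with length (-0.00454) was the lowest of that group.

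Levels of different genes were compared in FPKM, the authors' value per transcript length, for the most counted transcript of each gene. XBP1 was the most abundant of the 10 per length in all 4 groups, with 177 ± 9.53 FPKM (SD, n = 3) in U266 and 270 ± 2.77 in MM.1S under DMSO. In U266 under DMSO it was followed by IRF4 (36.2 ± 1.29) and POU2AF1 (34.3 ± 2.86), whose libraries overlapped, then PRDM1 (12.2 ± 0.224) and IKZF3 (11.4 ± 0.567). POU2F2 (7.9 ± 0.803) and MEF2C (7.76 ± 0.0904) overlapped, and IKZF1 (6.51 ± 0.0826) stood below them. BCL6 had a mean of 1.11 FPKM and PAX5 of 0.00679. In MM.1S under DMSO the order was XBP1, IRF4 (77.7 ± 3.98), POU2AF1 (54.1 ± 4.01) and MEF2C (50 ± 0.255), which overlapped, then PRDM1 (33.5 ± 0.885), IKZF1 (12.9 ± 0.315), IKZF3 (10.7 ± 0.799), POU2F2 (2.46 ± 0.0198), BCL6 (0.259) and PAX5 (0.011). MEF2C moved the most places between the lines, and the plasma cell factors XBP1 and IRF4 led the B cell factors BCL6 and PAX5 in both.

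With IT848 the order changed little. In U266 it was XBP1 (135 ± 3.08 FPKM), POU2AF1 (28.4 ± 0.792), IRF4 (24.2 ± 0.416), PRDM1 (10.2 ± 0.0602), IKZF3 (9.13 ± 0.45), MEF2C (5.91 ± 0.0319), IKZF1 (5.2 ± 0.183), POU2F2 (4.29 ± 0.0962), BCL6 (1.3) and PAX5 (0.00842), with no overlap between neighbours. IRF4, which overlapped POU2AF1 under DMSO, was below it after treatment, and POU2F2 was below IKZF1. In MM.1S the order was XBP1 (181 ± 1.97 FPKM), IRF4 (51.7 ± 3.88), MEF2C (42.4 ± 1.6) and POU2AF1 (37.5 ± 4.17), which overlapped, PRDM1 (25.6 ± 2.67), IKZF1 (8.31 ± 0.486), IKZF3 (7.22 ± 0.177), POU2F2 (1.41 ± 0.165), BCL6 (0.27) and PAX5 (0.00613).

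**Figure D3:**
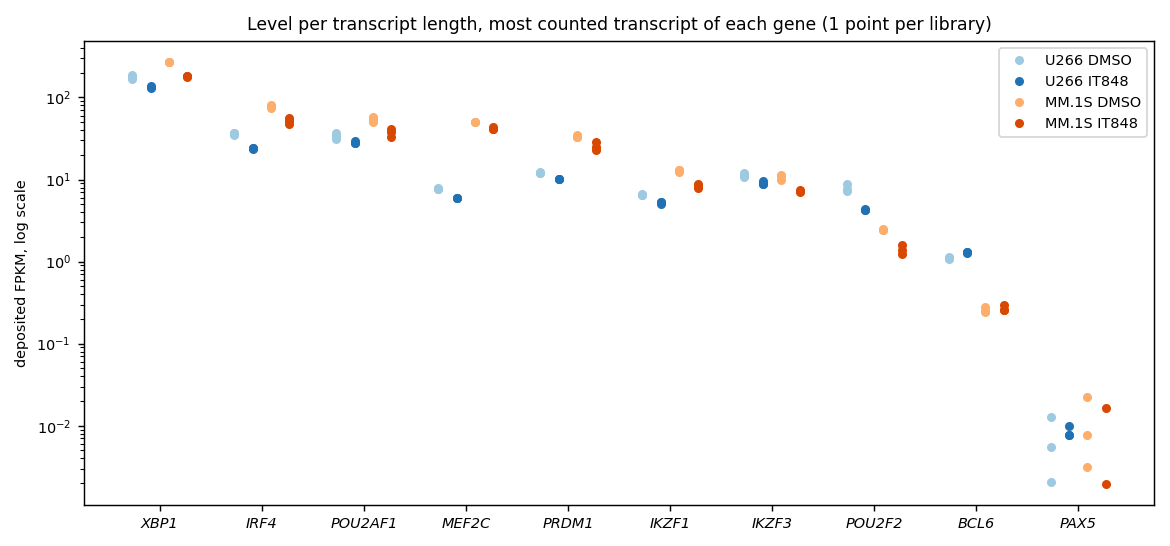
Level per transcript length of each factor in each library, in FPKM of its most counted transcript on a log axis, by group. Points are libraries, and a library with no read of that PAX5 transcript (IT848 replicate 2 of MM.1S) has no point. XBP1 is at the top in all 4 groups (177 FPKM in U266 and 270 in MM.1S under DMSO) and PAX5 at the bottom.

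Between the lines under DMSO, 82.6% of all genes were called, 40.6% higher and 42.1% lower in MM.1S. The 10 factors were called about as often as genes at large. Under DMSO, 6 of the 10 factors were higher in MM.1S, 2 were lower and 2 were not called. MEF2C had the largest gap, 6.62-fold higher in MM.1S (log2 fold change 2.73 ± 0.04, edgeR adjusted p = 8.8e-17). PRDM1 was 2.71-fold higher (1.44 ± 0.05), IRF4 2.18-fold (1.13 ± 0.05), IKZF1 2.03-fold (1.02 ± 0.04), POU2AF1 1.61-fold (0.69 ± 0.07) and XBP1 1.55-fold (0.63 ± 0.04), with edgeR adjusted p of 4.9e-07 or below. BCL6 and POU2F2 went the other way, with MM.1S at 0.24 times (-2.06 ± 0.08, edgeR adjusted p = 4e-12) and 0.32 times (-1.64 ± 0.08, adjusted p = 3e-11) the level in U266. IKZF3 was close in both lines (-0.07 ± 0.05, 95% interval -0.17 to 0.03, edgeR adjusted p = 0.215), and PAX5 was not resolved (edgeR adjusted p = 0.586).

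The genes nearest in pattern were sought for IRF4 and POU2F2, which had the largest sums of absolute responses over both lines, by Euclidean distance over the 3 log2 fold changes (IT848 in U266, IT848 in MM.1S, and line under DMSO), which rest on 4 groups. Nearest to IRF4 were GLDC at 0.102 (log2 fold changes -0.59, -0.66 and 1.08), SLC9C1 at 0.155 and AQP3 at 0.175 (-0.50, -0.44 and 1.04). Nearest to POU2F2 were B3GNT8 at 0.16, CPNE5 at 0.322 and VTN at 0.348. Of these, SLC9C1, B3GNT8 and VTN had mean levels of 0.12, 0.205 and 0.152 CPM, so their pattern rests on few reads, while AQP3 (71.7 CPM), GLDC (26.5) and CPNE5 (22.2) were well counted.

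Genes that work with the 10 factors were then described by lists. Of 33 other B cell and plasma cell transcription factors tested, 5 rose and 7 fell in U266 (median log2 fold change 0.00). In MM.1S, 4 rose and 15 fell (median -0.17). The share called was 36.4% in U266, against 9.01% of all genes, and 57.6% in MM.1S, against 38.3%. In U266, MEF2B, a relative of MEF2C, rose (0.63 ± 0.12), and SPIB (-0.45 ± 0.10), KLF2 (-0.43 ± 0.07) and TCF3 (-0.34 ± 0.05), the E protein of B cells, fell. AFF3 and BCL11A were also called higher in U266, at means of 0.189 and 0.156 CPM with IT848, and without the 2 libraries with reads of the other line 2 genes rose. In MM.1S the proto-oncogene MYB (-0.94 ± 0.05), BCL11A (-0.83 ± 0.10) and ETS1 (-0.69 ± 0.06) fell the most, and BACH2 (0.36 ± 0.07), SPI1 (0.33 ± 0.11) and RUNX1 (0.21 ± 0.06) rose.

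B cell genes that PAX5 activates or PRDM1 lowers did not move as a block. Of 17 tested, 2 rose and 3 fell in U266 (median -0.05), and 2 rose and 5 fell in MM.1S (median 0.06). So 29.4% were called in U266, against 9.01% of all genes, and 41.2% in MM.1S, near the 38.3% of all genes. CIITA, the master activator of MHC class II genes, fell in both lines (-0.42 ± 0.08 in U266 and -1.24 ± 0.08 in MM.1S). CD79B, a part of the B cell receptor, fell in U266 (-0.38 ± 0.10), and CXCR5, a homing receptor, fell in MM.1S (-1.39 ± 0.26). CXCR5 was low in MM.1S, at a mean of 1.12 CPM with DMSO and 0.428 with IT848. BACH2, a repressor of PRDM1, rose in U266 (0.29 ± 0.07) as in MM.1S. FCRLA was called higher in both (1.45 ± 0.26 in U266). It stood at 0.532 CPM in U266 and at 66.9 in MM.1S under DMSO, and without the 2 libraries with reads of the other line 1 B cell gene, not 2, rose in U266.

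Secretory pathway genes that XBP1 activates moved in both directions. Of 35 tested, 2 rose and 5 fell in U266 (median -0.05), so 20% were called, against 9.01% of all genes. In MM.1S, 7 rose and 6 fell (median 0.01), so 37.1% were called, against 38.3% of all genes. DERL3, a factor of endoplasmic reticulum (ER) degradation, fell in both lines (-0.24 ± 0.05 in U266 and -0.47 ± 0.05 in MM.1S). EDEM1 (0.35 ± 0.05) and DNAJB9 (0.29 ± 0.07) rose in U266, and SEC24D (0.39 ± 0.05) and SEC61B (0.35 ± 0.07) rose in MM.1S, where SEL1L (-0.31 ± 0.05) and SYVN1 (-0.28 ± 0.08) fell. Without the 2 libraries, 1 rose and 2 fell in U266. Of 5 genes listed around IRE1 and XBP1 activation, 0 rose and 2 fell in U266 (1 without the 2 libraries), and 0 rose and 3 fell in MM.1S. These were 40% and 60% called, against 9.01% and 38.3% of all genes. ERN1, which encodes IRE1, fell in MM.1S (-0.60). HSPA5, the ER chaperone BiP, fell in U266 (-0.25), and EIF2AK3, which encodes PERK, fell in both (-0.22 and -0.41). The 2 falls in U266 were thus those of HSPA5 and EIF2AK3, whose products do not splice XBP1 mRNA, and ERN1 was not called there.

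Plasma cell genes fell more often than they rose. Of 18 tested, 1 rose and 10 fell in U266 (median -0.20), and 2 rose and 9 fell in MM.1S (median -0.17). In each line 61.1% were called, against 9.01% of all genes in U266 and 38.3% in MM.1S. Without the 2 libraries with reads of the other line, 1 rose and 8 fell in U266, and 2 rose and 8 fell in MM.1S. SDC1, which encodes the plasma cell marker CD138, fell in U266 (-0.54) and in MM.1S (-1.04), as did CD38 (-0.48 and -0.85), while SLAMF7 rose in both (0.47 and 0.43). TNFRSF17, which encodes BCMA, fell in U266 (-0.53 ± 0.07) and rose in MM.1S (0.27 ± 0.07), and that difference of 0.80 ± 0.10 passed the test (edgeR adjusted p = 0.00012).

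Lists tied to the Ikaros, MEF2 and BCL6 proteins were shorter. Of 11 genes of the cereblon ligase and its other substrates, 0 were called in U266, and 2 rose and 5 fell in MM.1S (median -0.10), among them CRBN itself (0.18 ± 0.06), ZNF692 (-0.59 ± 0.11) and GSPT1 (-0.36 ± 0.03). The share of this list called in MM.1S was 63.6%, against 38.3% of all genes. Without the 2 libraries, 1 gene of this list rose in MM.1S. Of 9 regulators of MEF2, 4 fell and 0 rose in U266 (median -0.17), and 2 fell without the 2 libraries. In MM.1S, 6 fell and 1 rose (median -0.32). The share called was 44.4% in U266, against 9.01% of all genes, and 77.8% in MM.1S, against 38.3%. HDAC9, a corepressor of MEF2 factors, fell in U266 (-0.44 ± 0.05) and rose in MM.1S (0.38 ± 0.05), with a difference of 0.82 ± 0.08 (edgeR adjusted p = 7.5e-06), while HDAC7 fell in both (-0.29 and -0.47). Of 7 BCL6 corepressors, 1 rose and 1 fell in U266 (median -0.06), and 2 rose and 4 fell in MM.1S (median -0.22). Here 28.6% were called in U266, against 9.01% of all genes, and 85.7% in MM.1S, against 38.3%. BCOR fell (-0.22 and -0.60) and TBL1X rose (0.53 and 0.13) in both lines, but without the 2 libraries 0 fell in U266 and 0 rose in MM.1S.

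MYC, which IRF4 is known to sustain in myeloma, was at 230 ± 3.08 CPM in MM.1S with DMSO and at 149 ± 6.6 with IT848 (SD, n = 3; log2 fold change -0.63 ± 0.11, edgeR adjusted p = 0.00049). In U266 it was low, at 3.6 ± 0.165 and 4.65 ± 1.46 CPM, and was not called (0.36 ± 0.16, adjusted p = 0.23). Of the 7 genes of the list of MYC and genes tied to IRF4, 1 rose and 2 fell in U266 (median -0.03). Without the 2 libraries, 1 fell there. In MM.1S, 1 rose and 5 fell (median -0.20). The share called was 42.9% in U266, against 9.01% of all genes, and 85.7% in MM.1S, against 38.3%. CDK6 rose in U266 (0.27) and fell in MM.1S (-0.26), and SCD, the fatty acid desaturase, fell in both (-0.23 and -0.29).

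**Figure D4:**
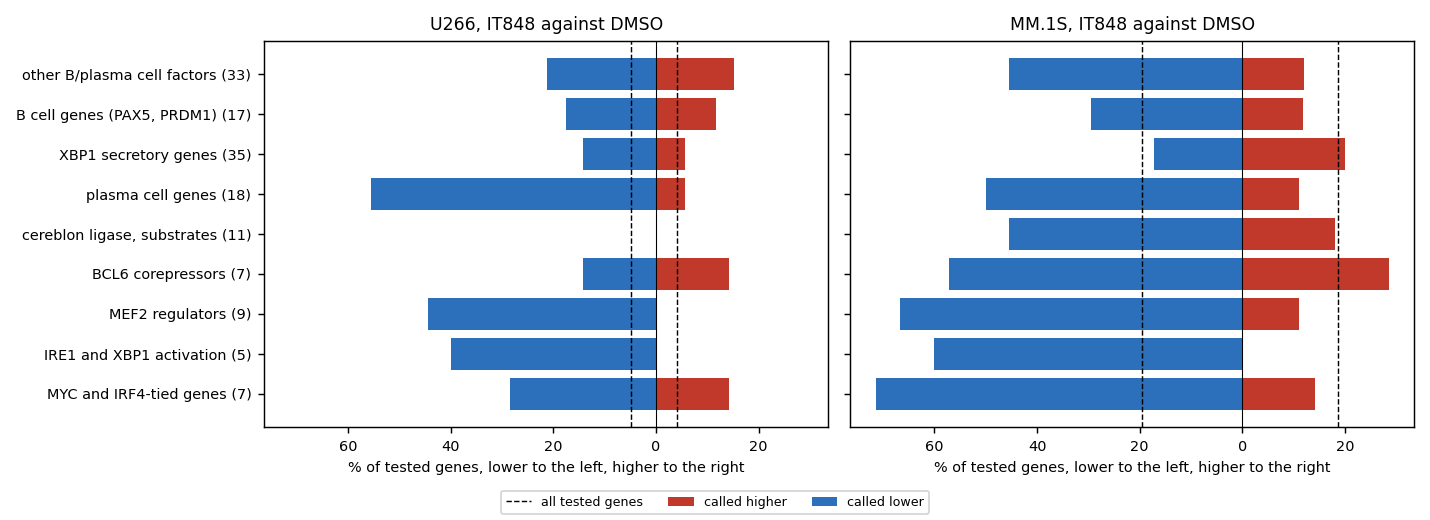
Share of the tested genes of each list (number in brackets) that were called lower (bars to the left) or higher (bars to the right) with IT848, in percent, for U266 and MM.1S; dashed lines give the share of all tested genes, 4.98% lower and 4.03% higher in U266 and 19.6% and 18.7% in MM.1S. The plasma cell genes have 10 of 18 lower in U266, and the secretory genes stay near the dashed lines in MM.1S.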

How the data were processed

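RNA of 12 libraries, 3 per group, was analysed from the deposited transcript tables; groups came from the sample titles. Per the submitters' processing notes, the authors aligned to hg19 and counted (tools named: STAR 2.5.2b; featureCounts, Subread 1.5.2; Trimmomatic 0.36; bcl2fastq). Strand use, multimapped reads and annotation version: not given in the sources used here. The deposited count is, per the file headers, the authors' number of reads per transcript. The deposited FPKM is scaled by the authors to transcript length and library total, and was used for levels between genes and for transcript length. The deposited TPM was not used for results. Counts were summed per symbol; each overlapping transcript received the read, so sums repeat reads and CPM is not comparable between genes. With 1 transcript per gene, totals were 22887471 to 32913386. No molecular identifiers were used, so depth covers counting error only.

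edgeR 4.0.16 (R 4.3.3) was run on all 12 libraries with TMM scaling, its expression filter (minimum count 10, which left 16782 genes), a mean per group and the robust quasi-likelihood F test; p-values were adjusted by Benjamini-Hochberg over all genes and called below 0.05. The scripts were tested on simulated data. Alternatives (21) were DESeq2 1.42.0, other scaling and filters, fits on the contrast's libraries, a replicate block, leaving out each library or both libraries with reads of the other line, and, added after the data were seen, a length trend taken out by lowess (span 0.3). The 10 genes and 14 lists (174 of 175 entries matched) were chosen with earlier results of these data known. Of each list, up to 3 called genes with the largest change per direction and line could be named; TNFRSF17, HDAC9 and MYC also had their difference between lines given. Promoter sequences are RefSeq's, GRCh38.p14; no hg19 genome was used.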

Additional observations from a re-analysis of the deposited data

Results flagged for a closer look

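The response to IT848 differed between the lines, by a test of the difference itself, for 3 of the 10 factors. For IKZF1 the difference of log2 fold changes (MM.1S minus U266) was -0.29, with all treated libraries lower in both lines and further below the controls in MM.1S. For IKZF3 it was -0.23, in the same direction, and it was lost in 11 of 20 alternatives. For MEF2C it was 0.17, with the larger fall in U266, and it was lost without DMSO replicate 2 of MM.1S. With 3 libraries a group, no test for a single outlying library was made. Among the pairs of libraries of a group, the treated MM.1S libraries differed most: the chi-square per gene was 30 between replicates 1 and 3 and 12.2 between 2 and 3, against 2.14 to 8.53 for pairs in the other groups.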

How the results depend on the processing

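The 8 falls kept their direction in both lines under all 21 alternatives; all 8 stayed called in MM.1S, and in U266 POU2AF1 was lost in 5. Over all 10 factors and 4 contrasts, 775 values stayed on their side of the threshold, 14 passed it only in an alternative, 18 lost it and 9 changed sign. For PAX5 the sign turned in U266 without DMSO replicate 1 (-0.13; 1.11 without DMSO replicate 3), in MM.1S without the 2 libraries with reads of the other line (0.33) or DMSO replicate 2 of MM.1S (0.32; -3.26 without IT848 replicate 3), in the difference without the latter (0.03, down to -3.55), and between lines without both (-0.50) or that one (-0.49; up to 1.42). The IRF4 difference, near 0, turned without both (-0.00), without DMSO replicate 3 of MM.1S (-0.02) and without IT848 replicate 1 of MM.1S (-0.02; highest 0.05). The cause was not tested.

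Of all genes, 1512 were called in U266, 924 without the 2 libraries and 986 to 1827 when each library was left out in turn, the lowest without DMSO replicate 3 of U266. The difference gave 2924 genes, 1712 without the 2 libraries and 2208 to 3870 when each was left out. In MM.1S leaving out each library gave 5110 to 6681 genes, and between lines 13480 to 14177.

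BCL6 made 1 factor higher in U266, against 0, with DESeq2, upper quartile scaling, only the contrast's libraries, or the length trend taken out, and 0 to 1 when each library was left out. In the difference, the factors higher went from 1 to 0 without the 2 libraries (0 to 1 over single libraries), and the factors lower from 2 to 1 with upper quartile scaling or without the 2 libraries (1 to 4 over single libraries). With the length trend taken out, IKZF3 left and XBP1 (-0.22) entered. Between lines, 3 factors were lower, against 2, with upper quartile scaling, where IKZF3 passed (-0.13, adjusted p = 0.0377).

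Same-numbered libraries' deviations correlated weakly, by -0.0563 to 0.117. Within a line, the best match had the same number for replicate 1 of U266 and replicates 1 and 3 of MM.1S. It had another number for the remaining replicates, so pairing by number was not resolved. With a replicate block, the difference gave 4388 genes and 4 factors lower, with XBP1 (adjusted p = 0.032) and POU2AF1 (0.00918) added, and 1 factor, BCL6, was higher in U266.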
